A study of Mus musculus with 6 samples.

Results

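Gmpr encodes guanosine monophosphate reductase, and it is described here in interscapular brown fat together with 9 genes whose products convert or salvage purine nucleotides: Gmpr2, Impdh1, Impdh2, Hprt, Aprt, Pnp, Ampd2, Adsl and Guk1. These 10 genes were taken by name, and 9 of them were among the 8129 genes with at least 1 read. Gmpr was selected on its measured difference between cold and control libraries, and the other 9 were added with results of these data known, so the values of all 10 are given as descriptions, without a test. For each gene the reads of its annotated transcripts were added up, over both of the library's flow cells. The filter on low counts was passed by 5 of the 10 genes (Gmpr, Pnp, Hprt, Impdh1 and Guk1).

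The libraries came from male wild type C57BL/6N mice aged 20 weeks, with 3 mice kept alone at 4 °C for 24 h (cold mice 4, 11 and 15) and 3 control mice (mice 2, 9 and 14). General husbandry was at 22 to 24 °C under a 12 h light cycle. The cold treatment is written on the records of all 6 samples, so the groups follow the titles and the treatment tag. Whether the control mice were also housed singly is not given, and single housing and cold therefore cannot be told apart. From whole tissue, capped and polyadenylated RNA was copied to full-length cDNA by the TeloPrime method, amplified and read on nanopore flow cells. The tissue label says interscapular brown fat, but eWAT, which is white fat, stands in the extraction text. All 8 brown adipocyte markers looked for (such as Ucp1, the uncoupling protein of heat production) had reads, with a summed level of 13790 to 14820 CPM (counts per 1e6 reads, with libraries scaled by the trimmed mean of M-values, TMM) in cold libraries and 14150 to 18970 CPM in control libraries. Of these markers Dio2, the deiodinase that activates thyroid hormone, was at 0 in every library except that of cold mouse 4. Another of them, Elovl3, stood at 77.25, 111 and 56.4 CPM in cold mice 4, 11 and 15. In control mice 2, 9 and 14 Elovl3 stood at 3.77, 6.14 and 8.97 CPM, a difference that the sum does not show. Elovl3 was named after its values were seen, and it does not stand for the list. The levels of the remaining markers are not given by library here.

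Cold libraries held 2922939, 2982630 and 2951811 reads and control libraries 1849351, 1014812 and 1735298 reads. Each cold library was deeper than each control library, and 3 reads corresponded to 1.01 to 1.03 CPM in cold libraries and 1.62 to 2.96 CPM in control libraries. Across the 2093 genes with enough reads to test, edgeR's quasi-likelihood test called 695 genes at a Benjamini-Hochberg adjusted p under 0.05, which is 33.2%. Of these, 378 (18.1% of the tested genes) were higher in the cold and 317 (15.1%) lower, and the median log2 change over all tested genes was 0.04. In tissue samples of this kind, a smaller number of cells of a type and less RNA per cell cannot be told apart.

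Purine nucleotides are built on IMP, from which separate branches lead to AMP and GMP. IMP dehydrogenase takes IMP towards GMP, and GMP reductase runs the opposite way, turning GMP back into IMP with the loss of its amino group and the use of NADPH. Salvage enzymes rebuild the nucleotides from free bases, and nucleoside phosphorylase releases such bases. In brown fat, purine nucleotides bind uncoupling protein 1 and inhibit it. In rats, Gmpr is known as a gene whose expression in brown fat increases on cold exposure.

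The mouse genome holds a relative of Gmpr, Gmpr2, and a read can be credited to the right gene only where their sequences differ. Gmpr (ENSMUSG00000000253) lies on GRCm38 chromosome 13 from 45507444 to 45553800 on the plus strand, and its most counted transcript, Gmpr-201, has 9 exons and 1580 bases. Gmpr2 (ENSMUSG00000002326) lies on chromosome 14 from 55671941 to 55679200 on the plus strand, with Gmpr2-201 of 10 exons and 1993 bases. Their coding sequences were identical at 724 of 1035 aligned bases, or 70.0%. The first 90 coding bases of each, from GENCODE M21, are shown because they let the pair be compared by eye, with the 29 bases that differ in capitals.
Gmpr-201: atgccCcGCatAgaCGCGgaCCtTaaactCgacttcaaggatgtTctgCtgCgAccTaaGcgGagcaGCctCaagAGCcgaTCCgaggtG
Gmpr2-201: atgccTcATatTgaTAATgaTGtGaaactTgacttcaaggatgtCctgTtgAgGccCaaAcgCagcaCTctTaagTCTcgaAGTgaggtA
A search of all annotated transcripts found no copy of Gmpr of at least 85% identity over at least 200 bases. Exons of Gmpr overlap those of Atxn1 on the opposite strand, which held 2 reads in all.

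Gmpr was far higher in the cold mice. It had 10841, 14877 and 11644 reads in cold mice 4, 11 and 15, against 316, 150 and 300 reads in control mice 2, 9 and 14. As levels this was 3625, 4906 and 3817 CPM in the cold libraries, against 170.4, 154 and 179 CPM in the control libraries. The groups were far apart, since the lowest cold library stood many times above the highest control library. The mean was 4116 ± 691 CPM in cold libraries and 168 ± 13.1 CPM in control libraries (SD, n = 3 each). The fitted log2 change, cold minus control, was 4.62 ± 0.19 (SE), a 24.5-fold higher level. Among the 2093 tested genes, 10 had a larger log2 change. Of all reads of a library, Gmpr took 0.371%, 0.499% and 0.395% in cold mice 4, 11 and 15, and 0.0171%, 0.0148% and 0.0173% in control mice 2, 9 and 14. Ranked by level per kilobase of transcript among all genes, Gmpr stood at places 84, 67 and 85 in those cold libraries and at places 452, 476 and 450 in the control libraries.

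**Figure D1:**
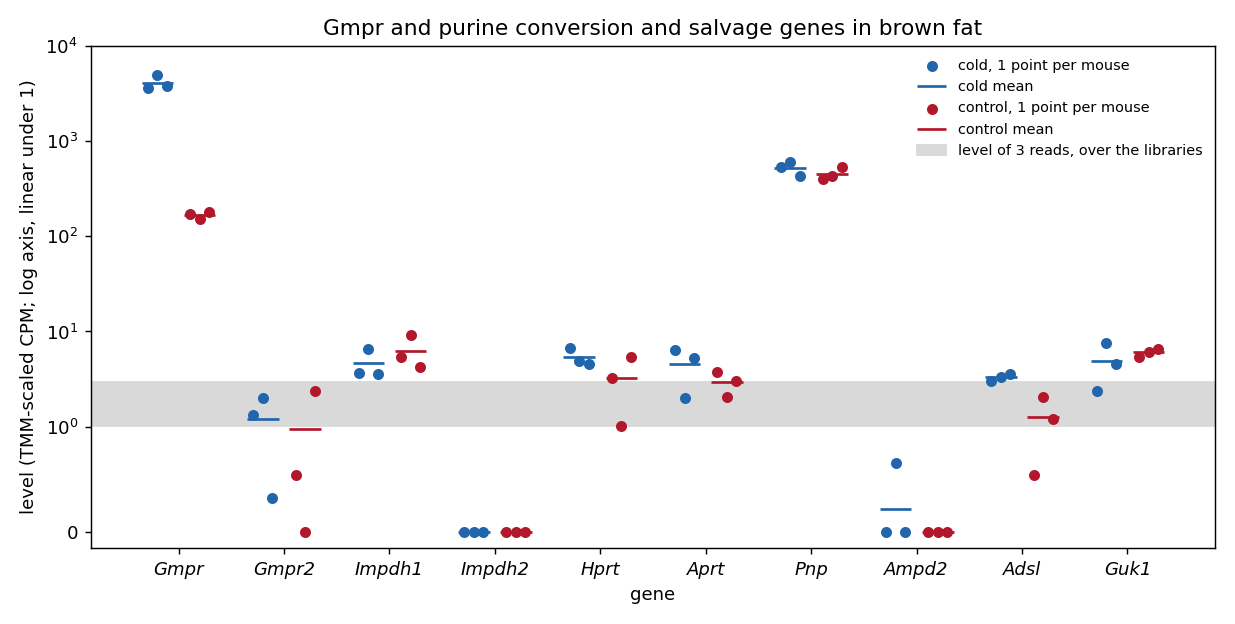
Level of the 10 genes in each library (TMM-scaled CPM on a log axis that is linear under 1), with cold mice in blue left of control mice in red, bars at the group means and the grey band at the level of 3 reads. Gmpr separates the groups at 3625 CPM or more in cold and 179 CPM or less in control libraries, Pnp lies at like levels in both, and the other 8 genes lie near the band or at 0.

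Both flow cells gave the same picture for Gmpr. On the first flow cell it reached 3773, 4974 and 4005 CPM, here without TMM scaling, in cold mice 4, 11 and 15, and 165, 148 and 184 in control mice 2, 9 and 14. On the second it reached 3634, 5004 and 3873 CPM in the cold mice, and 178, 148 and 161 in the control mice. On neither flow cell did the groups overlap, and each library differed less between its flow cells than from any library of the other group.

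Nearly all Gmpr reads fell on 1 annotated transcript. Of the 4 transcripts annotated for the gene, 3 had reads, and Gmpr-201 held 99.9% of them in each cold library and 99.7%, 100% and 100% in control mice 2, 9 and 14. The exact 95% binomial interval was 98.2% to 100% for control mouse 2, and intervals cover counting error only. Gmpr-204, an annotated non-coding transcript of 2 exons and 682 bases at the gene's far end, held 14, 20 and 9 reads in the cold libraries and 1, 0 and 0 reads in the control libraries. Gmpr-202, a coding transcript that starts inside the gene at 45513840, held 0, 2 and 7 reads in the cold libraries and none in the control libraries, which held 150 to 316 Gmpr reads. The shares of Gmpr-201 did not differ between the groups beyond counting error.

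Gmpr2, which catalyses the same reaction, was at the limit of detection. It had 4, 6 and 1 reads in cold mice 4, 11 and 15, against 1, 0 and 4 reads in control mice 2, 9 and 14, and the groups overlapped. Over pooled reads the cold level was 1.14 times the control level, with an exact counting interval of 0.366 to 4.19. That interval leaves out the spread between mice. Per kilobase of transcript, Gmpr stood at 2605 ± 437 CPM and Gmpr2 at 0.610 ± 0.418 CPM in cold libraries, and in control libraries Gmpr stood at 106 ± 8.30 CPM and Gmpr2 at 0.490 ± 0.630 CPM (SD, n = 3 each). Gmpr reads thus outnumbered Gmpr2 reads in every library. Exons of Gmpr2 overlap those of Nedd8 on the opposite strand, which held 300 reads in all, and whether counting used the strand is not given.

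Impdh1 and Impdh2 encode IMP dehydrogenase, which catalyses the rate-limiting step from IMP towards GMP. Impdh1 (ENSMUSG00000003500, chromosome 6 from 29200434 to 29216364, minus strand) stood at 3.68, 6.60 and 3.61 CPM in cold mice 4, 11 and 15, against 5.39, 9.21 and 4.19 CPM in control mice 2, 9 and 14. The groups overlapped, and the log2 change was -0.35 ± 0.43 (SE). These levels rest on 11, 20 and 11 reads in cold libraries and 10, 9 and 7 reads in control libraries. Impdh2 (ENSMUSG00000062867, chromosome 9 from 108560286 to 108565584) had no read in any library, which allows up to 1.01 to 2.96 CPM depending on the library. It has a processed pseudogene, Impdh2-ps, with 99.7% identity over 1545 bases, and that copy also had 0 reads.

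The Impdh1 reads fell on 4 of its 10 annotated transcripts. Impdh1-201, which starts at 29212297, held 10 of 11, 16 of 20 and 8 of 11 reads in cold mice 4, 11 and 15, which are 90.9%, 80.0% and 72.7%. It held 4 of 10, 3 of 9 and 3 of 7 reads in control mice 2, 9 and 14, which are 40.0%, 33.3% and 42.9%. Impdh1-202, which starts further upstream at 29216364, held 0, 2 and 2 reads in the cold libraries and 4, 3 and 3 reads in the control libraries. In each control library Impdh1-201 and Impdh1-202 held equal read numbers. The shares of Impdh1-201 did not overlap between the groups, and how often this holds for other transcripts is not given. Each share rests on 7 to 20 reads, and the exact 95% interval ran from 39.0% to 94.0% in cold mouse 15 and from 9.90% to 81.6% in control mouse 14. How reads that fit several transcripts were assigned is not given either. The difference in shares was not tested.

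Hprt and Aprt encode the salvage enzymes that join a free base to phosphoribosyl pyrophosphate, Hprt using hypoxanthine or guanine and Aprt using adenine. Hprt (ENSMUSG00000025630, chromosome X from 52988137 to 53021659) stood at 6.69, 4.95 and 4.59 CPM in cold mice 4, 11 and 15, against 3.24, 1.02 and 5.38 CPM in control mice 2, 9 and 14. Control mouse 14 lay within the cold range, and the log2 change was 0.62 ± 0.47 (SE). Without control mouse 14 it was 1.12, and without control mouse 9, where Hprt had 1 read, it was 0.30. Without control mouse 2 it was 0.55. With cold mouse 4, 11 or 15 left out alone, Hprt was not among the tested genes, so these values are not a full range. Aprt (ENSMUSG00000006589, chromosome 8 from 122574635 to 122576909) had 19, 6 and 16 reads in the cold libraries and 7, 2 and 5 reads in the control libraries. Its levels of 6.35, 1.98 and 5.25 CPM in cold libraries and 3.77, 2.05 and 2.99 CPM in control libraries overlapped.

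Pnp encodes purine nucleoside phosphorylase, which splits inosine and guanosine into the free base and ribose phosphate, and it was the other abundant gene of the set. Pnp (ENSMUSG00000115338, chromosome 14 from 50931082 to 50965237, plus strand) had 1597, 1810 and 1318 reads in cold mice 4, 11 and 15, against 739, 421 and 888 reads in control mice 2, 9 and 14. The levels were 534, 597 and 432 CPM in cold libraries, against 398, 431 and 531 CPM in control libraries. The groups overlapped, with cold mouse 15 near the middle of the controls and control mouse 14 level with cold mouse 4. The mean was 521 ± 83.2 CPM in cold libraries and 454 ± 69.1 CPM in control libraries (SD, n = 3 each), a log2 change of 0.20 ± 0.20 (SE). Pnp-201 (6 exons, 2942 bases) held 97.9% to 99.1% of the Pnp reads in cold libraries and 97.2% to 99.4% in control libraries. Pnp-202, whose annotation runs on through the neighbouring gene Pnp2, held 15, 20 and 27 reads in the cold libraries and 10, 12 and 5 reads in the control libraries.

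Reads of Pnp and of its neighbour Pnp2 are harder to separate than those of Gmpr and Gmpr2. Their coding sequences were identical at 851 of 867 aligned bases, or 98.2%, and a stretch of 90 coding bases from each (bases 4 to 93 of Pnp-201 and 49 to 138 of Pnp2-201, from GENCODE M21) is shown because it holds a single difference, in capitals.
Pnp-201: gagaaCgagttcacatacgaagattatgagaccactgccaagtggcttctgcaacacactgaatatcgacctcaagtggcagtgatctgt
Pnp2-201: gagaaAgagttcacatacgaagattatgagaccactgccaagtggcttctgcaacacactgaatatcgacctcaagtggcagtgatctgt
Pnp2 was credited with 3, 6 and 6 reads in cold mice 4, 11 and 15 and 2, 10 and 5 reads in control mice 2, 9 and 14. A further gene at the locus, Gm49342, matched Pnp at 99.9% over 722 bases and held 4 reads in all. No source used here gives the rule for reads that fit several transcripts, so these small counts are uncertain. The Pnp counts are many times larger than the counts of both copies together.

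Ampd2, Adsl and Guk1 complete the set. Ampd2 encodes an AMP deaminase, which turns AMP into IMP, and it had 2 reads in all, both in cold mouse 11. Adsl encodes adenylosuccinate lyase, which acts on the way to IMP and again between IMP and AMP. Adsl (ENSMUSG00000022407, chromosome 15 from 80948490 to 80970946) had 9, 10 and 11 reads in cold mice 4, 11 and 15, against 1, 2 and 2 reads in control mice 2, 9 and 14. Its levels of 3.01, 3.30 and 3.61 CPM in cold libraries did not overlap those of 0.539, 2.05 and 1.20 CPM in control libraries. The pooled cold level was 3.12 times the pooled control level, with an exact counting interval of 1.20 to 10.3. The interval covers counting error only, without the spread between mice, so it is no test of cold against control. Adsl did not pass the filter on low counts. Groups did not overlap in 47.8% of the tested genes, of which Adsl is not one. Guk1 (ENSMUSG00000020444, chromosome 11 from 59183875 to 59192212), the kinase that turns GMP into GDP, stood at 2.34, 7.59 and 4.59 CPM in cold libraries, against 5.39, 6.14 and 6.58 CPM in control libraries. The groups overlapped, the log2 change was -0.31 ± 0.45 (SE), and it was near 0 without cold mouse 4 (-0.0017).

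Counted over the set, 1 of the 5 tested genes, Gmpr, passed the adjusted threshold, beside the 33.2% of all tested genes that did. The groups of libraries did not overlap in 1 of the 5 tested genes, beside 47.8% of all tested genes. They did not overlap in 2 of the 9 genes with reads (Gmpr and Adsl), for which the share over all genes with reads is not given. Since Gmpr was selected on this difference, nothing is read from these counts. Apart from Gmpr and Pnp, the 8 other genes together held 312 of 13456841 reads, each under 100, so their differences were hardly detectable at this depth.

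Set in order of level per kilobase, Gmpr and Pnp led in both groups and changed places between them. In cold libraries Gmpr led at 2605 ± 437 CPM per kilobase, followed by Pnp at 177 ± 28.3. In control libraries Pnp led at 154 ± 23.5 CPM per kilobase, followed by Gmpr at 106 ± 8.30 (SD, n = 3 each). In every cold library Gmpr was above Pnp, and in every control library Pnp was above Gmpr. Below this pair came Aprt, Guk1, Hprt and Impdh1, at means of 5.33, 4.49, 4.20 and 1.90 CPM per kilobase in cold libraries and 3.46, 5.60, 2.49 and 2.57 in control libraries, and the order among them changed from library to library. Adsl, Gmpr2, Ampd2 and Impdh2 were under 1 CPM per kilobase on average in both groups.

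Ratios of reads within a library do not depend on how libraries are scaled to each other. Gmpr reads were 6.79, 8.22 and 8.84 times the Pnp reads in cold mice 4, 11 and 15, against 0.428, 0.356 and 0.338 times in control mice 2, 9 and 14. The mean ratio was 7.95 ± 1.05 in cold libraries and 0.374 ± 0.0474 in control libraries (SD, n = 3 each), a factor of 21.3. Against the reads of all 9 other genes, Gmpr reads were 7.59 ± 0.981 times as many in cold libraries and 0.358 ± 0.0447 times as many in control libraries, a factor of 21.2. Most reads of the 9 genes were Pnp reads, as with 1597 of 1667 in cold mouse 4 and 421 of 441 in control mouse 9. This ratio thus largely repeats the ratio over Pnp. Gmpr reads over Impdh1 and Impdh2 reads together came to 986, 744 and 1059 in the cold libraries and 31.6, 16.7 and 42.9 in the control libraries. On each of these ratios every cold library stood above every control library.

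Skeletal muscle RNA was uneven between the libraries. Of 12 muscle markers, 11 had reads (Myh2 had none), and their summed level was 214, 3055 and 14120 CPM in cold mice 4, 11 and 15, against 132, 558 and 971 CPM in control mice 2, 9 and 14. In cold mouse 4 the sum lay within the control range, and Gmpr stood at 3625 CPM there. Myh1, Myh2, Myh4 and Atp2a1 were at 0 in cold mouse 4. These Myh genes were also at 0 in cold mouse 11 and all 3 control libraries, and Atp2a1 in control mouse 2. With cold mice 11 and 15 left out together, the Gmpr log2 change was 4.48 ± 0.31 (SE), an alternative chosen after the marker values were seen. The summed level of 4 white adipocyte markers, all with reads, was 166 to 257 CPM in cold libraries and 66.3 to 119 CPM in control libraries. Nearly all of this sum was Retn, which encodes the adipocyte hormone resistin, at 252, 149 and 174 CPM in cold mice 4, 11 and 15, against 65.8, 117 and 92.7 CPM in control mice 2, 9 and 14. Of the other markers, Lep was at 0 in all 3 cold libraries and in control mice 2 and 14, Slc7a10 in cold mouse 11 and all 3 control libraries, and Nnat in control mouse 14. The part of white adipocytes in the Gmpr values was not tested.

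**Figure D2:**
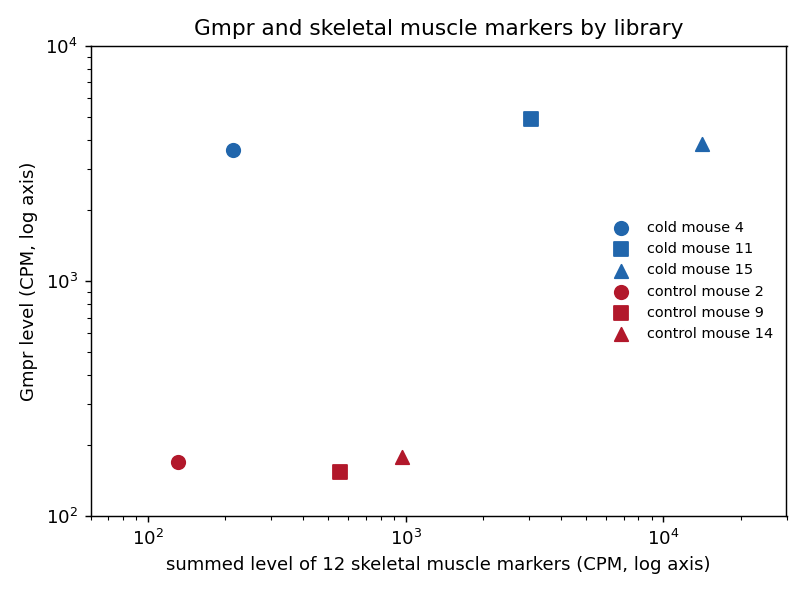
Gmpr level against the summed level of 12 skeletal muscle markers in each library (CPM, both axes logarithmic), with cold mice in blue and control mice in red. The 3 cold libraries spread from 214 to 14120 CPM of muscle markers. Their Gmpr levels lie between 3625 and 4906 CPM, above all control libraries. The part of muscle RNA in Gmpr was not tested.

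The other markers differed less. The summed level of 6 of 7 endothelial markers with reads was 9.18 to 13.7 CPM in cold and 10.8 to 18.4 CPM in control libraries. The macrophage list, with 4 of 8 markers read and Adgre1, Cd68, Csf1r and Mrc1 at 0 in every library, summed to 52.8 to 121 CPM in cold and 52.6 to 86.0 CPM in control libraries. Erythroid markers, with 5 of 5 read, summed to 16250 to 22440 CPM in cold and 14930 to 28030 CPM in control libraries. Fibroblast markers, with 4 of 7 read, summed to 30.8 to 53.1 CPM in cold and 15.6 to 37.9 CPM in control libraries. On these 4 lists the groups overlapped.

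Around the set, 92 further genes of purine metabolism were looked up in 8 lists, of which 53 had reads and 13 could be tested. In edgeR's quasi-likelihood test with Benjamini-Hochberg adjustment over all genes, 3 of the 13 rose (beside 18.1% of all tested genes) and 1 fell (beside 15.1%). Their median log2 change was 0.07, against 0.04 over all tested genes. Most of the pathway was thus too sparsely read to compare, which holds for the first steps of synthesis, for breakdown and for deoxynucleotide supply.

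Adenylate and nucleoside diphosphate kinases, which pass phosphate between nucleotides, had 5 tested genes of 16, with 2 higher (beside 18.1% of all tested genes), none lower (beside 15.1%) and a median log2 change of -0.28. Ak1, a cytosolic adenylate kinase that is abundant in muscle, stood at 22.7, 24.7 and 15.7 CPM in cold mice 4, 11 and 15, against 5.93, 6.14 and 9.57 CPM in control mice 2, 9 and 14. The groups did not overlap, and Ak1 rose by a log2 change of 1.52 ± 0.31 (SE; edgeR adjusted p = 0.0039). Cold mouse 15, with the most muscle marker RNA, had the lowest Ak1 of the cold libraries, and the log2 change was 1.68 with cold mice 11 and 15 left out, which leaves 1 cold library. That setting was chosen after the marker values were seen. The part of muscle RNA in Ak1 was not tested. On the first flow cell alone the change was 0.93 and missed the threshold, and on the second it was 2.52.

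Nme1, a nucleoside diphosphate kinase, stood at 181, 137 and 211 CPM in cold mice 4, 11 and 15, against 139.6, 93.2 and 88.5 CPM in control mice 2, 9 and 14. Cold mouse 11 lay just under control mouse 2, so the groups overlapped, and the log2 change was 0.72 ± 0.25 (SE; edgeR adjusted p = 0.048). The call was lost with DESeq2 size factors (0.66), with coding transcripts alone (0.70), without cold mouse 4 (0.67), without cold mouse 15 (0.57), without control mouse 9 (0.59) and without control mouse 14 (0.56), and on the first flow cell alone (0.52). Its neighbour Nme2 stood at 324 ± 36.5 CPM in cold libraries and 392 ± 99.9 CPM in control libraries, with a log2 change of -0.28 ± 0.22 (SE). A joint gene model, Gm20390, shares exons with both and held 38 reads. Ak3, a kinase of the mitochondrion, had a log2 change of -0.54 ± 0.28 (SE) that missed the threshold.

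Slc29a1, the plasma membrane transporter that lets nucleosides pass in both directions, was the sole tested gene of 7 nucleoside transporters. It stood at 42.8, 44.2 and 46.6 CPM in cold mice 4, 11 and 15, against 15.1, 31.7 and 25.7 CPM in control mice 2, 9 and 14. The groups did not overlap, and it rose by a log2 change of 0.91 ± 0.28 (SE; edgeR adjusted p = 0.028). Without any 1 of cold mice 4, 11 or 15 or control mouse 14 it missed the threshold at log2 changes of 0.92, 0.92, 0.89 and 0.95, and without control mouse 2 at 0.63. It also missed the threshold on the second flow cell alone, at 0.67, and with libraries thinned to equal depth, at 0.81.

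Of 10 genes whose products form or use GTP or cyclic GMP, 4 were tested, with a median log2 change of -0.45. Pck1, the GTP-using enzyme that makes phosphoenolpyruvate, stood at 5891, 5424 and 5215 CPM in cold mice 4, 11 and 15, against 6009, 7971 and 11110 CPM in control mice 2, 9 and 14. The groups did not overlap, although cold mouse 4 and control mouse 2 were close, and Pck1 fell by 0.60 ± 0.20 on the log2 scale (SE; edgeR adjusted p = 0.038). The call was lost without any of cold mice 4, 11 or 15 or control mice 9 or 14, at log2 changes of -0.67, -0.58, -0.55, -0.66 and -0.37, and with library totals alone, at -0.53. Suclg1 and Suclg2 belong to succinyl-CoA ligase, which makes GTP in its Suclg2 form and ATP in its Sucla2 form. Suclg1 had a log2 change of -0.49 ± 0.18 (SE; edgeR adjusted p = 0.053) and passed the threshold under 8 of 17 alternatives. Suclg2 had a log2 change of -0.42 ± 0.22 and Sucla2 one of 0.07 ± 0.18 (SE), neither past the threshold.

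**Figure D3:**
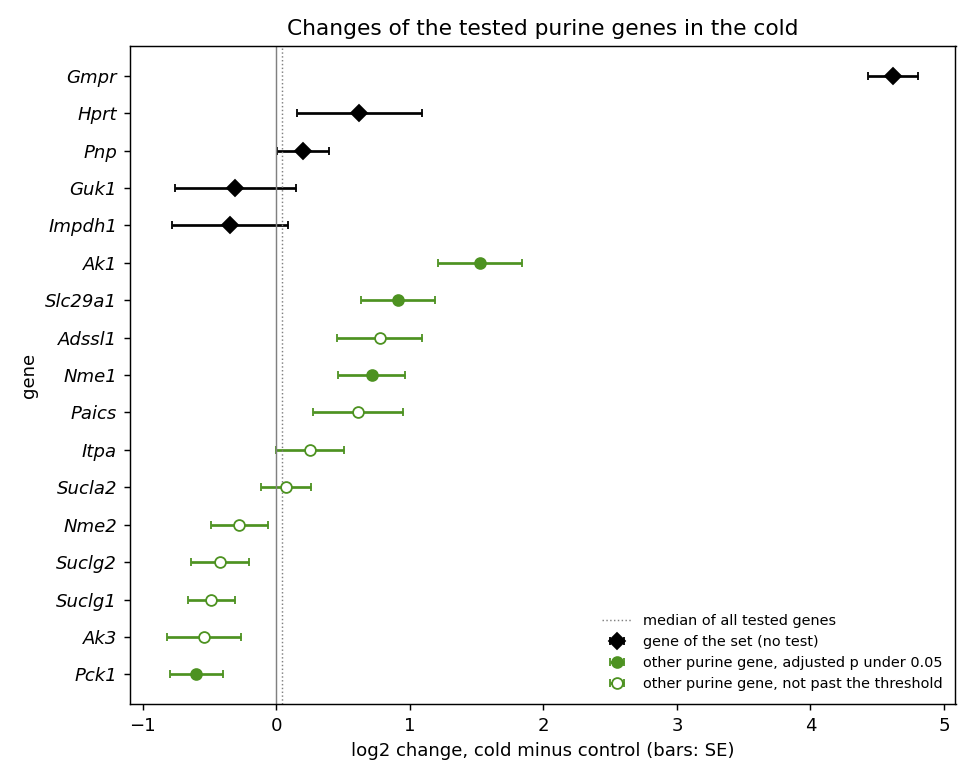
Log2 change, cold minus control, with its SE, for the 5 tested genes of the set (black diamonds, given without a test) and 12 tested genes of the other purine lists (green circles, filled where the edgeR adjusted p is under 0.05). Gmpr lies at 4.62, while the other 16 genes lie between -0.60 and 1.52.

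The remaining lists held few reads. Among the steps that build IMP from phosphoribosyl pyrophosphate, 7 of 11 genes had reads and Paics, an enzyme with successive roles in this route, was the single tested gene. It stood at 12.7, 16.5 and 15.4 CPM in cold mice 4, 11 and 15, against 5.39, 11.3 and 13.2 CPM in control mice 2, 9 and 14, with a log2 change of 0.61 ± 0.34 (SE) that missed the threshold. Ppat and Pfas, also of this route, had no read. Among 6 other enzymes between IMP, AMP and GMP, Adssl1, the adenylosuccinate synthase of muscle, had a log2 change of 0.78 ± 0.32 (SE; edgeR adjusted p = 0.084). Adssl1 stood at 22.7, 19.5 and 32.5 CPM in cold mice 4, 11 and 15, against 13.5, 9.21 and 19.7 CPM in control mice 2, 9 and 14. The groups overlapped, with cold mouse 11 just under control mouse 14. Cold mouse 15 had the highest muscle marker sum. Cold mouse 11 had a higher muscle marker sum than cold mouse 4 but less Adssl1. The part of muscle RNA in Adssl1 was not tested. Gmps, which makes GMP from the product of IMP dehydrogenase, had 15, 9 and 5 reads in cold mice 4, 11 and 15 and 5, 1 and 0 reads in control mice 2, 9 and 14.

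For breakdown, 10 of 24 genes had reads and Itpa, which removes inosine triphosphate, was tested, with a log2 change of 0.25 ± 0.26 (SE) that missed the threshold. Ada, Gda, Xdh and Uox, enzymes that deaminate or oxidise purines, had no read in any library. Of 6 genes for purine deoxynucleotides none was tested, and Dguok, the mitochondrial deoxyguanosine kinase, led with 5 reads in all. Of 12 folate genes none was tested, and Shmt1, a serine hydroxymethyltransferase, led with 38 reads.

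The 5 tested genes with the profile most like that of Gmpr were found by the Euclidean distance between log2(CPM + 1) values over the 6 libraries, each gene centred on its own mean. They were Cars2 at a distance of 0.655, Got1 at 0.899, Cntfr at 0.993, Adcy3 at 1.06 and Cyp4b1 at 1.19, where the median over 2092 tested genes was 5.64. These profiles share their libraries and depth. In each of the 5 genes every cold library was above every control library. This split follows from choosing the genes by likeness to Gmpr and is not a separate result. Cars2, a mitochondrial cysteinyl-tRNA synthetase, stood at 269, 479 and 261 CPM in cold mice 4, 11 and 15, against 11.3, 16.4 and 12.0 CPM in control mice 2, 9 and 14. Like Gmpr it was highest in cold mouse 11. Got1, the cytosolic aspartate aminotransferase, stood at 168, 188 and 260.0 CPM in the cold libraries and 9.70, 11.3 and 12.0 CPM in the control libraries. Adcy3, an adenylyl cyclase, averaged 135 ± 26.1 CPM in cold libraries and 5.02 ± 2.81 CPM in control libraries (SD, n = 3 each). Cntfr, a cytokine receptor subunit, averaged 118 ± 32.1 CPM in cold libraries and 6.82 ± 1.35 CPM in control libraries, and Cyp4b1, a cytochrome P450, 219.7 ± 28.2 CPM in cold libraries and 15.8 ± 4.62 CPM in control libraries (SD, n = 3 each). All 5 genes had much lower levels than Gmpr in every library.

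**Figure D4:**
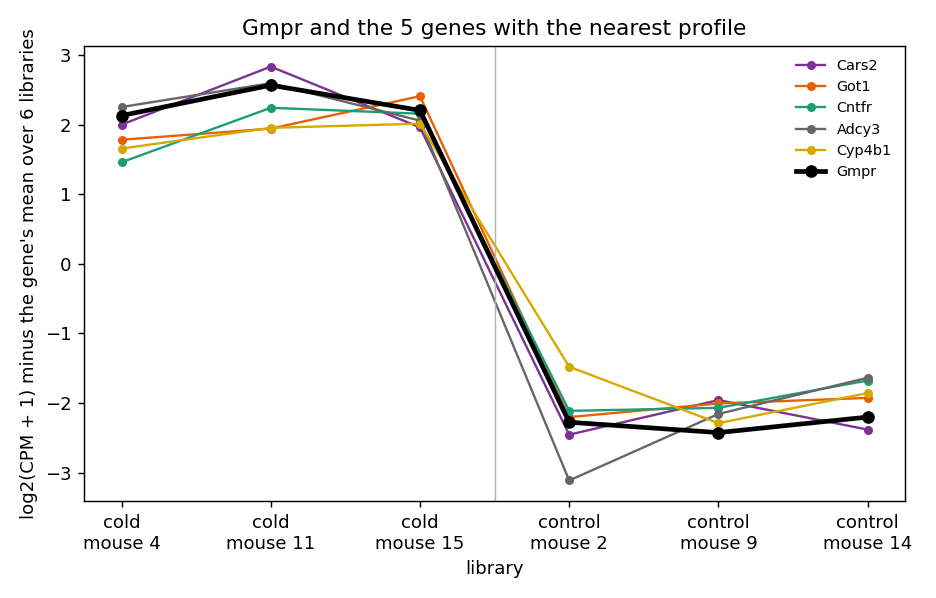
Log2(CPM + 1) of Gmpr (thick black line) and of the 5 genes with the nearest profile in each library, each minus the gene's own mean over the 6 libraries, with cold mice left of control mice. All 6 genes lie above their mean in the 3 cold libraries and below it in the 3 control libraries. For the 5 genes this follows from their choice by likeness to Gmpr.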

How the data were processed

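Messenger RNA of 6 brown fat libraries was read on nanopore flow cells, 2 per library, from cDNA made over 27 PCR cycles. The deposited files hold raw counts, the authors' read numbers per Ensembl transcript and flow cell, and every value is a whole number. The submitters' processing notes name minimap2 and GRCm38, with no minimap2 version. No molecular identifiers are mentioned, so intervals and floors cover counting error only.

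Counts were summed over flow cells and, through GENCODE M21, over the transcripts of a gene. Of 14693 identifiers, 14671 matched without their version, and the 22 others held at most 0.00433% of a library. Cold was compared with control by edgeR 4.0.16 in R 4.3.3 (filterByExpr at a minimum count of 10, TMM, robust quasi-likelihood F test, Benjamini-Hochberg adjustment over all tested genes, called under 0.05). CPM was computed with TMM scaling, and the SE was worked back from the F test. Copies were sought with blastn 2.17.0. The fit was tested on simulated data. P-values set the difference between groups against the spread between these 3 mice of each group, with that spread estimated partly across genes.

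The genes of the set and the lists were chosen with earlier results of these data known. The rule for named genes took the 10 genes of the set, every called gene of the other lists, the gene with the most reads of each list without a call, and the 5 genes nearest to Gmpr in profile. Further genes named as examples of a list were chosen after their values were seen. Of the 13 tested genes of the other lists, 1 is counted but not reported here. Alternatives were DESeq2 1.42.0 and its size factors, library totals, other count filters, equal depth, single flow cells, coding transcripts, versioned identifiers and leaving out each library.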

Additional observations from a re-analysis of the deposited data

How the results depend on the processing

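The Gmpr log2 change stayed between 4.48 and 4.74 over 17 alternatives. Its factor over the reads of the other 9 genes, which were mostly Pnp reads, stayed between 18.2 and 23.1 over 11. The factor was lowest with cold mice 11 and 15 left out together. That setting was chosen after seeing the data. It leaves 1 cold library, which is assumed to vary like the controls, and called 321 genes in place of 695, and 1 of the other purine genes (Ak1) in place of 4. With 1 library left out at a time, between 498 and 687 genes were called, and between 1 and 4 of the other purine genes: 1 without cold mouse 4, cold mouse 15 or control mouse 14, and 2 without cold mouse 11. The other settings gave 525 to 708 calls. Relative scaling moved the split of the 4 purine calls, with 2 higher and 2 lower under DESeq2 size factors and 3 higher and none lower with library totals. Without a count filter the median log2 change of all genes was 0.30, against 0.04. Hprt, Impdh1 and Guk1 did not pass the stricter filter, equal depth or single flow cells. Hprt was also not tested with cold mouse 4, 11 or 15 left out alone. The Guk1 log2 change was -1.29 with cold mice 11 and 15 left out. No setting reversed a called value, and the cause of the lost calls was not tested. No paired analysis was possible because the groups share no mouse number. Depth limits all genes of the set except Gmpr and Pnp.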
